A study of Mus musculus with 12 samples.

Results

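Histone genes were followed in quadriceps muscle of 7-day-old C57Bl/6 mice, in 6 arrays labelled KO and 6 arrays labelled WT. In the study KO means mice lacking cofilin-2, the muscle cofilin that severs actin filaments, and WT means wild-type littermates. The level of Cfl2, the gene of cofilin-2, went against these labels, so they are not taken here as the genotype of an array. Each array carried total RNA of the muscle of 1 mouse, hybridized to an Affymetrix Mouse Gene ST array. The sources used here give no treatment, sex or litter for an array, and cofilin-2 was missing from the whole animal and not from muscle fibres alone. The members were the genes whose symbol, in its older form, starts with Hist1h, Hist2h, Hist3h, Hist4h, H1f, H2af or H3f, and which had a probe set with 1 gene symbol. Of 93 such genes in the gene table, 44 had a probe set of their own, out of 19938 genes measured in all. Another 39 were listed only on probe sets shared by several genes and 10 on none.

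The nucleosome holds DNA wrapped around a core of the histones H2A, H2B, H3 and H4, and linker histone H1 sits where the DNA enters and leaves. The bulk of these proteins comes from replication-dependent genes that lie in clusters, are read in S phase, and give messages that end in a stem-loop in place of a poly(A) tail. Variant histones such as H2A.Z, H3.3 and macroH2A come from single genes outside the clusters, give polyadenylated messages and are made through the whole cell cycle, also in cells that no longer divide. H2ax makes messages of both kinds and was counted with the variants. By these rules the 44 genes fell into 28 clustered S-phase genes, 8 somatic variants, 7 genes known from the germline and 1 gene outside these classes, Macroh2a3. Macroh2a3 and H2bu1-ps, the latter counted with the clustered genes, are annotated as transcribed pseudogenes.

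The clustered genes lay on chromosome 13 (20 genes), chromosome 3 (4 genes), chromosome 11 (3 genes) and chromosome 6 (1 gene). Promoters of the genes that the results turn on are shown because clustered histone genes are known for short control elements close to the start. The 120 bases before the start are given 5′ to 3′ on the strand of the gene, from RefSeq on GRCm38.p6, for 4 clustered genes that were higher on the arrays labelled KO (H2ac4, H1f1, H2bc18 and H4c4), for the 1 clustered gene that was lower (H1f2) and for both H2A.Z genes. Capitals mark the CCAAT box, the TATA box (the letters TATAAA) and the octamer ATTTGCAT, searched on both strands, so that the first may read ATTGG.
H2ac4, chr13:23750968-23751087, plus strand: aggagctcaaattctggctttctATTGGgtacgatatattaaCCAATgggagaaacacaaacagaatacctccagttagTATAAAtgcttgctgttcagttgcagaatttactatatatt
H1f1, chr13:23763548-23763667, plus strand: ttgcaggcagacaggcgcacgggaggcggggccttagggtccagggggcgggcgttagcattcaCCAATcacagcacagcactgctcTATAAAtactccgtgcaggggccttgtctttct
H2bc18, chr3:96269580-96269699, plus strand: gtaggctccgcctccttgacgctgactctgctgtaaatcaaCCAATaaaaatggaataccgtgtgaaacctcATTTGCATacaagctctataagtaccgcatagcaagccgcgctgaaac
H4c4, chr13:23581448-23581567, plus strand: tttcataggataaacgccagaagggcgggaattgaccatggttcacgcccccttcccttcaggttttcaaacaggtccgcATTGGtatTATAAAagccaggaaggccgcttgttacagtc
H1f2, chr13:23738687-23738806, plus strand: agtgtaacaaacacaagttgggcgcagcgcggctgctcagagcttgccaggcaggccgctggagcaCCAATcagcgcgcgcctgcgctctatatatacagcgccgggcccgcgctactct
H2az1, chr3:137864367-137864486, plus strand: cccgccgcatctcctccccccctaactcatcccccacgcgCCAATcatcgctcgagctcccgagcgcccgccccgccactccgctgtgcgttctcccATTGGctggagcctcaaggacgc
H2az2, chr11:6444444-6444563, minus strand: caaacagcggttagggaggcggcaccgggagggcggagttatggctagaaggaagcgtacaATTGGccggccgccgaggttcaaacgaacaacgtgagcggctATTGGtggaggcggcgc

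The promoter table held 37 of the 44 members (all but H2ax, H2bc21, H2bc4, H2bu1-ps, H3c7, H4c14 and Macroh2a3). Over the 250 bases before the start and on both strands, CCAAT was present in 18 of 23 clustered genes, 4 of 7 variants and 33.8% of all 32851 promoters. TATAAA, the TATA box, was present in 13 of the 23 clustered genes and in 12.4% of all promoters, while none of the 7 variants held it. The octamer ATTTGCAT, a motif known from H2B promoters and bound by Oct factors, was found in 7 of the 23 clustered genes against 1.6% of all promoters, and the E2F-type letters TTTCGCGC in 1 of the 23 against 0.256%. Of the 13 clustered promoters whose gene was higher on the arrays labelled KO, 12 held CCAAT and 7 held TATAAA. Of the 9 whose gene did not pass the test, 5 held CCAAT and 6 held TATAAA. These are matches of letters in a fixed window and carry no test.

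The gene the labels name went against them. Cfl2 read from 4.92 to 7.71 on the arrays labelled WT and from 12.31 to 12.43 on those labelled KO, on the log2 scale of the deposited values, with all 6 arrays labelled KO above all 6 labelled WT. The groups are therefore called by their labels only, no array was moved, and every difference below is labelled KO minus labelled WT as deposited. This direction opposes the study's own for cyclin E. The study also reports Cfl2, Ucp1 and Lep as lower in mice lacking cofilin-2. Here they differed by 6.32, 2.75 and 2.12, or 80.0-fold, 6.72-fold and 4.35-fold, each called higher. The changes that the study prints for them are far smaller, so only directions are compared. Other genes that the study names were not compared here. If the 2 sets of labels were exchanged, each sign would turn and each size would stand. Histone messages would then on the whole be lower, not higher, in the mice lacking cofilin-2. One array labelled WT, WT4, stood apart in blood cell markers: the mean of 9 neutrophil markers was 8.85 there against 5.73 to 6.07 on the other arrays labelled WT, and that of 8 erythroid markers was 8.25 against 5.93 to 6.17. KO5 stood apart with a mean of 7.90 over 8 adipocyte markers against 9.39 to 9.71 on the other arrays labelled KO. Medians over all rows were 6.35 to 6.46 for the 12 arrays. For the 10 muscle fibre markers, array means ran from 12.45 to 12.85 in the group labelled WT. In the group labelled KO they ran from 12.85 to 13.02, so the ranges met at the edge, and the difference was 0.23. Of these 10 markers, 2 rose (Myh4 by 1.70 and Actn3 by 0.54). Another 3 fell (Tnnt3 by 0.12, Tnni2 by 0.13 and Mylpf by 0.14). Over all probe sets with 1 symbol 19.5% were called higher and 12.4% lower.

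Histone messages were on the whole higher on the arrays labelled KO. Of the 44 genes, 20 rose and 3 fell in limma's test with Benjamini-Hochberg adjustment over all 21789 probe sets with 1 symbol, and 21 did not pass. Over all these probe sets 31.9% were called, 19.5% as higher and 12.4% as lower, so that the 45.5% of histone genes called higher stood above the background and the 3 called lower did not. The median difference was 0.16 on the log2 scale over the 44 genes and -0.02 over all probe sets. In 5 genes (H2bc18, H4c4, H2ax, H2az1 and H2az2) all 6 arrays labelled KO lay above all 6 labelled WT, a pattern seen in 10.5% of all probe sets. The opposite pattern was seen in none of the 44 genes and in 4.92% of all probe sets.

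**Figure D1:**
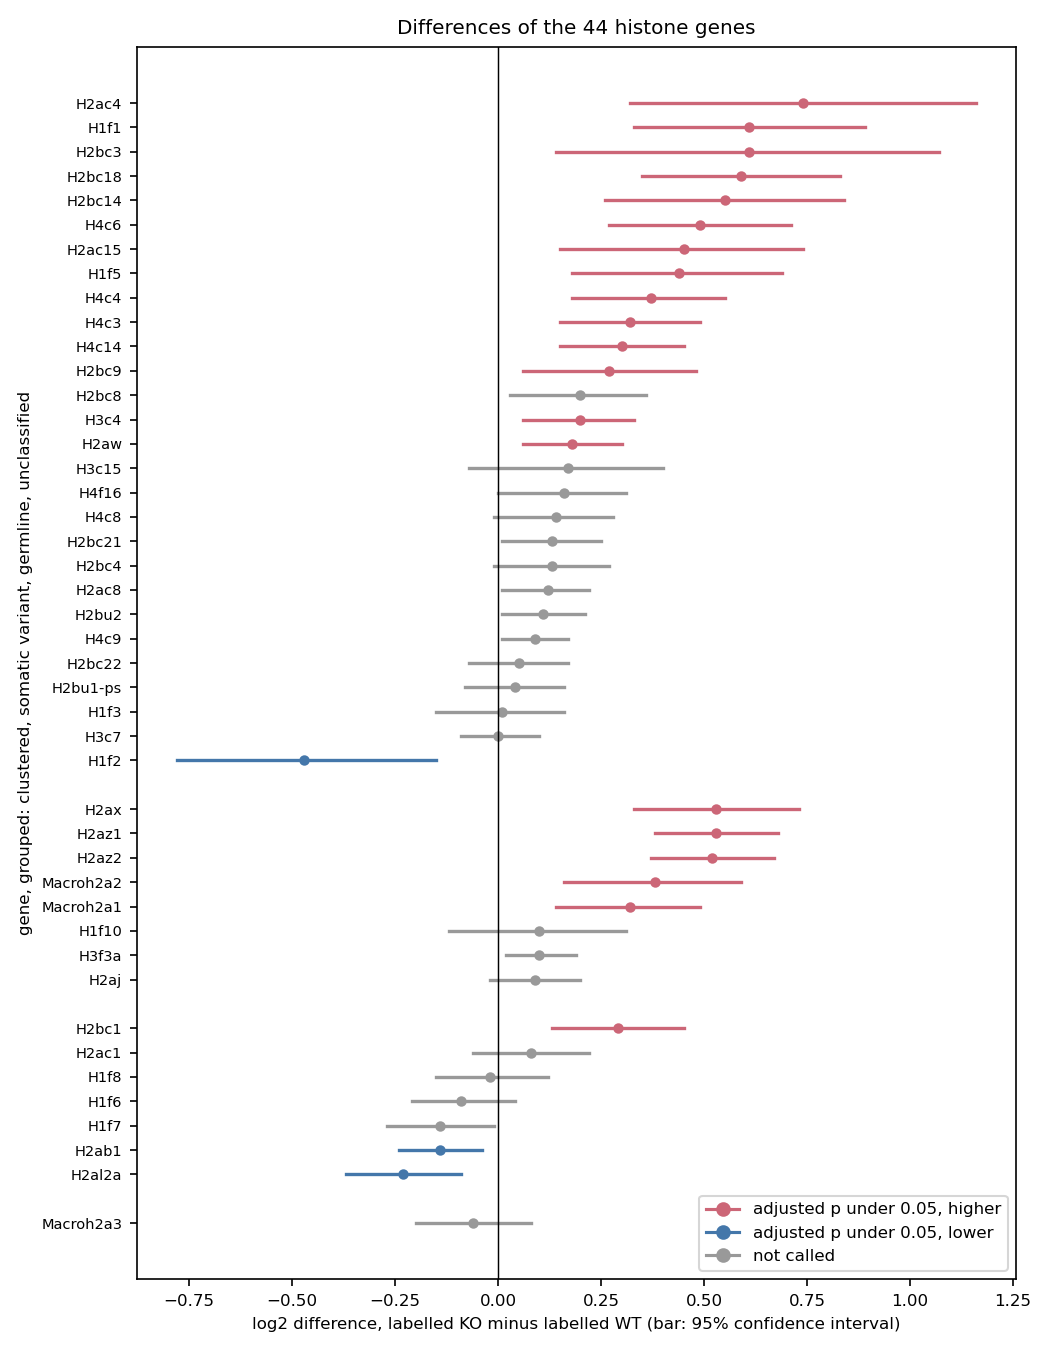
Log2 difference, labelled KO minus labelled WT, of the 44 histone genes with the 95% confidence interval of the limma fit, grouped from top to bottom as clustered, somatic variant, germline and unclassified genes (red, called higher; blue, called lower; grey, not called). The differences run from -0.47 (H1f2) to 0.74 (H2ac4), and 14 of 28 clustered genes and 5 of 8 somatic variants are called higher.

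Among the 28 clustered genes, 14 rose, 1 fell and 13 did not pass, with a median difference of 0.19. The difference was above 0 in 27 of the 28. The calls lay among the brighter genes: of 22 clustered genes with a mean level above the table's median of 6.42, 14 rose and 1 fell, while all 6 dimmer genes were without a call. Over all probe sets 29.8% of those above the median were called higher and 4.03% of those below it. The counts by chromosome and by family that follow are small and are to be read against these shares. By chromosome, 11 of 20 genes on chromosome 13 rose and 1 fell, and 2 of 4 on chromosome 3 and 1 of 3 on chromosome 11 rose. Of the 15 calls, 10 were kept whichever of the 12 arrays was left out.

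The linker histones moved in both directions. H1f1, which encodes H1.1, read 9.51, 9.82 and 10.36 (lowest, median and highest) on the arrays labelled WT and 10.35, 10.46 and 10.66 on those labelled KO. Its 2 groups met only at their edges, with 5 of the 6 arrays labelled KO above every array labelled WT, and the difference was 0.61 ± 0.13 (SE, n = 6 per group), or 1.52-fold, at a limma adjusted p of 0.00305. H1f5, for H1.5, read 9.89, 10.16 and 10.74 on the arrays labelled WT and 10.63, 10.68 and 10.78 on those labelled KO. The values of H1f5 labelled KO were drawn close together at the top of a wide spread labelled WT, and it rose by 0.44 ± 0.12 (limma adjusted p = 0.0122).

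H1f2, for H1.2, was the only clustered gene called lower. It read 11.31, 11.85 and 12.26 on the arrays labelled WT and 10.99, 11.40 and 11.60 on those labelled KO, so the ranges overlapped over part of their length. It fell by 0.47 on the log2 scale (SE 0.15), to 0.724 of the level labelled WT, at a limma adjusted p of 0.0255. The call was lost when KO3, KO5, WT1 or WT6 was left out, with the difference between -0.57 and -0.38 over the 12 such fits. H1f3, for H1.3, lay at 5.34 to 5.71 on the arrays labelled WT, against 5.37 to 5.67 on the arrays labelled KO and differed by 0.01 (adjusted p = 0.954).

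All 4 clustered H2A genes had a difference above 0, and 3 passed. H2ac4 had the largest difference of the 44 genes. It read 6.73, 7.42 and 8.09 on the arrays labelled WT and 7.89, 8.23 and 8.56 on those labelled KO, and 5 of the 6 arrays labelled KO lay above every array labelled WT. The difference was 0.74 ± 0.20, or 1.67-fold (limma adjusted p = 0.0104). H2ac15 read 10.53, 11.13 and 11.54 against 11.48, 11.60 and 11.67, with only the lower edge of the arrays labelled KO inside the range labelled WT, and rose by 0.45 ± 0.14 (adjusted p = 0.0229). H2aw, an H2A gene of the chromosome 11 cluster, rose by 0.18 ± 0.06 (adjusted p = 0.0277), a call lost when any of 7 arrays (KO3, KO4, KO5, WT1, WT2, WT5 or WT6) was left out. H2ac8 was dim, at 4.11 to 4.31 and 4.29 to 4.49, and did not pass (0.12, adjusted p = 0.0884).

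Of 10 clustered H2B genes, 4 rose and 6 did not pass. H2bc18, on chromosome 3, separated the groups: it read 7.30, 7.56 and 8.06 on the arrays labelled WT and 8.11, 8.27 and 8.36 on those labelled KO. No array labelled KO fell into the range labelled WT, and the difference was 0.59 ± 0.11, or 1.5-fold (limma adjusted p = 0.00124). H2bc14 read 9.71, 10.10 and 10.65 against 10.53, 10.70 and 10.90, overlapping at the edge, and rose by 0.55 ± 0.13 (adjusted p = 0.0062).

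H2bc3 had as large a difference on a far wider spread. It read 8.45, 9.55 and 10.14 on the arrays labelled WT and 9.96, 10.09 and 10.26 on those labelled KO, and only 2 of the 6 arrays labelled KO lay above every array labelled WT. The difference of 0.61 ± 0.22 passed narrowly (limma adjusted p = 0.0459) and shrank to 0.40 without WT6, the lowest array. Its call was lost when any of 9 arrays was left out (each of the 6 labelled KO, and WT1, WT2 or WT5). H2bc9 rose by 0.27 ± 0.10 (adjusted p = 0.0445), from 9.51, 9.80 and 10.18 to 9.98, 10.04 and 10.30 in overlapping groups, and lost its call when any one of 10 arrays was left out (all but WT3 and WT4). The largest difference without a call was that of H2bc8, at 0.20 (adjusted p = 0.0647).

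H3 genes were poorly covered by probe sets of their own. H3c4 read 6.58, 6.76 and 6.96 on the arrays labelled WT and 6.90, 6.94 and 7.10 on those labelled KO, so that most arrays labelled KO lay at or inside the upper edge of the range labelled WT. It rose by 0.20 ± 0.06 (limma adjusted p = 0.0282), and its call was lost without KO5, KO6, WT3 or WT6. H3c15 read 4.85 to 5.48 and 5.07 to 5.57 and did not pass (0.17, adjusted p = 0.264).

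H4 genes were mostly bright and 4 of the 7 rose. H4c6 read 9.05, 9.34 and 9.80 on the arrays labelled WT and 9.66, 9.88 and 10.02 on those labelled KO. Only the lowest array labelled KO lay inside the range labelled WT, and the difference was 0.49 ± 0.10, or 1.40-fold (limma adjusted p = 0.00263). H4c4 read 11.75, 12.07 and 12.32 against 12.38, 12.41 and 12.49, with no overlap, and rose by 0.37 ± 0.09 (adjusted p = 0.00543). H4c3 rose by 0.32 ± 0.08 (adjusted p = 0.0068) from 8.41, 8.66 and 8.83 to 8.76, 8.97 and 9.14. H4c14, on chromosome 3, rose by 0.30 ± 0.07 (adjusted p = 0.00581) from 10.39, 10.59 and 10.80 to 10.73, 10.91 and 10.98. In both, 5 of the 6 arrays labelled KO lay above every array labelled WT. H4f16, the single gene on chromosome 6, did not pass (0.16, adjusted p = 0.111).

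**Figure D2:**
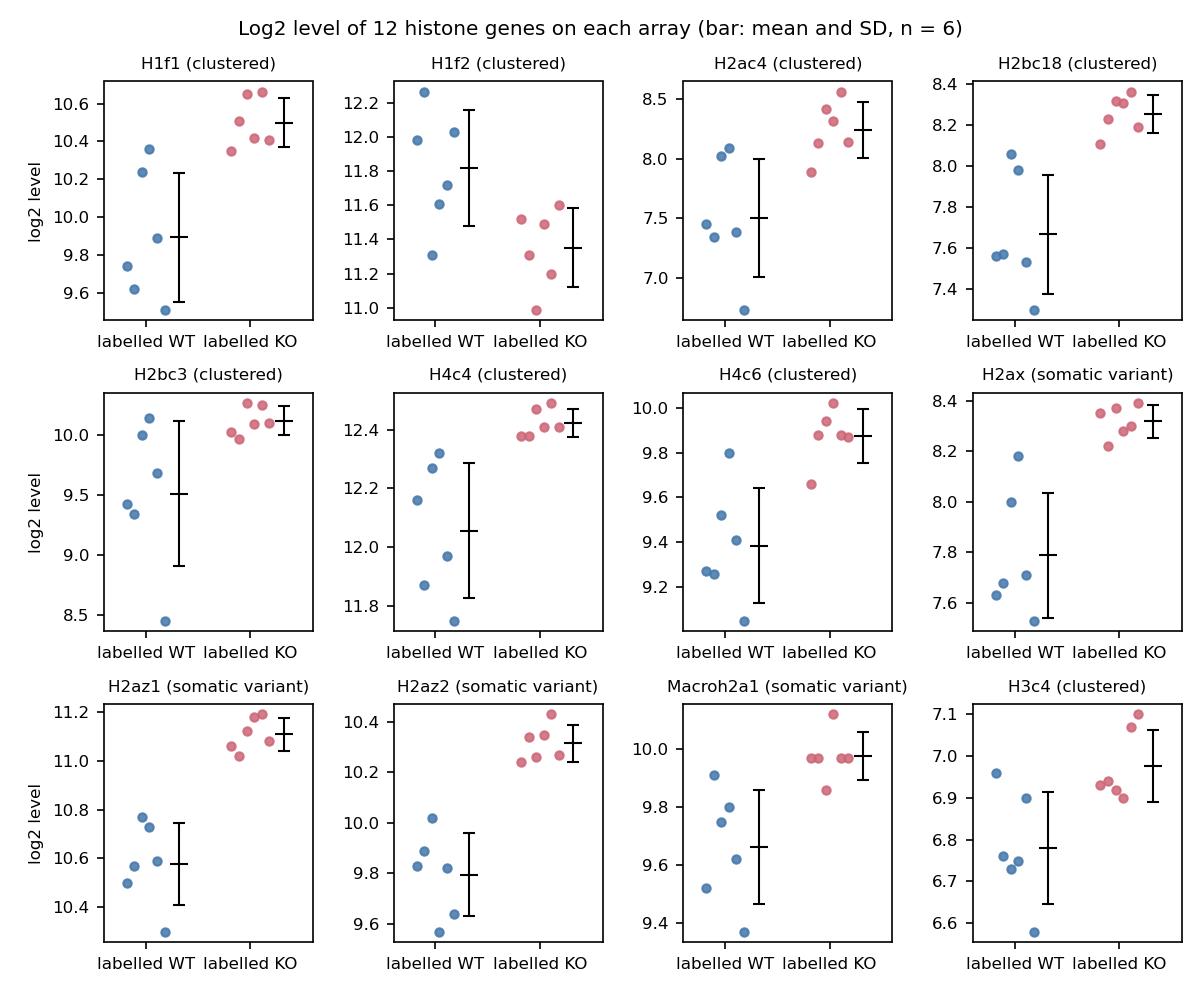
Log2 level on each of the 12 arrays for 12 histone genes, with the mean and SD of 6 arrays beside each group and a vertical scale of its own for each gene (blue, labelled WT; red, labelled KO). H2bc18, H4c4, H2ax, H2az1 and H2az2 show no overlap, H1f2 runs the other way, and the arrays labelled WT spread more widely, as in H2bc3 with an SD of 0.60 against 0.12.

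Clustered histone genes are close copies of each other, so a probe set named for 1 of them may also take up messages of its neighbours, and the single values above are uncertain to that extent. The probe sets that list several histone genes and no other gene gave a second reading. There were 26 of them, 24 with values of their own, most of these far above the table's median. Of probe sets with 1 symbol above that median, 29.8% were called higher in the fit used so far. In a fit over all 35556 rows, where 13.1% of all rows were higher, 22 of the 24 were called higher and 0 lower. Probe sets listing 12 H3 genes together made up 10 of these, and all 10 rose, by 0.43 to 0.50. For H4, 5 of 5 rose (0.21 to 0.32), for H2B 5 of 6 (0.31 to 0.38) and for H2A 2 of 2 (0.30 and 0.36). The probe set shared by H1f4 and H2bc6 did not pass (0.16, adjusted p = 0.0737). Since these probe sets list largely the same genes, they are not separate measurements of separate genes.

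Somatic variants rose as well. Of the 8, 5 rose and none fell, with a median difference of 0.34. Without H2ax the figures were 4 of 7 and 0.32. Over all probe sets 19.5% were called higher, and 29.8% of those above the table's median, where 7 of the 8 lay. All 5 calls were kept whichever array was left out. Whether the variants differed from the clustered genes, of which 50% were called higher against 62.5%, was not tested.

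Both genes of H2A.Z, the variant placed at promoters and enhancers, separated the groups by a wide gap. H2az1 read 10.30, 10.58 and 10.77 on the arrays labelled WT and 11.02, 11.10 and 11.19 on those labelled KO. H2az2 read 9.57, 9.82 and 10.02 against 10.24, 10.30 and 10.43. In each the lowest array labelled KO stood above the highest labelled WT. H2az1 rose by 0.53 ± 0.07, or 1.45-fold (limma adjusted p = 9.06e-05), and H2az2 by 0.52 ± 0.07, or 1.43-fold (adjusted p = 9.81e-05). A second probe set of H2az1 gave 0.55 (adjusted p = 8.21e-05), also without overlap.

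H2ax, whose protein is phosphorylated around DNA breaks, read 7.53, 7.70 and 8.18 on the arrays labelled WT and 8.22, 8.32 and 8.39 on those labelled KO. The groups did not overlap, though WT4 and WT3 came near to the arrays labelled KO, and the difference was 0.53 ± 0.09, or 1.44-fold (limma adjusted p = 0.000788). The macroH2A genes encode H2A variants with a large extra domain, linked to silent chromatin. Macroh2a1 read 9.37, 9.68 and 9.91 against 9.86, 9.97 and 10.12 and rose by 0.32 ± 0.08 (adjusted p = 0.0085), with 5 of the 6 arrays labelled KO above every array labelled WT. Macroh2a2 read 7.99, 8.31 and 8.65 against 8.48, 8.69 and 8.94 and rose by 0.38 ± 0.10 (adjusted p = 0.0125), with more overlap.

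The other variants did not pass. H1f10, a linker histone outside the clusters, differed by 0.10 (adjusted p = 0.488) on a wide spread labelled WT, from 8.76 to 9.38. H2aj, for H2A.J, differed by 0.09 (adjusted p = 0.196). H3f3a, a gene of H3.3, had a dim probe set of its own, at 5.65 to 5.81 and 5.81 to 5.92, with a difference of 0.10 (adjusted p = 0.0626). Another 4 probe sets listed H3f3a together with Gm12657, lay higher than 10.7 on every array, and were each called higher with no overlap (0.20 to 0.24). The other gene of H3.3, H3f3b, was listed only with Gm6485, on 2 probe sets that did not pass (-0.03, adjusted p = 0.692, and 0.00, adjusted p = 0.97). H1f0, the linker histone of resting cells, was not analysed here.

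Germline histones, known from testis and oocytes, showed no common direction. Of 7, 1 rose, 2 fell and 4 did not pass, with a median difference of -0.09. Over all probe sets 19.5% were called higher and 12.4% lower. H2bc1 rose by 0.29 ± 0.07 (limma adjusted p = 0.0091), and it lies in the chromosome 13 cluster among the S-phase genes. H1f6 and H2ac1, also on chromosome 13, did not pass (-0.09, limma adjusted p = 0.285, and 0.08, adjusted p = 0.386). H2al2a fell by 0.23 (adjusted p = 0.016). H2ab1 fell by 0.14 (adjusted p = 0.0344), a call lost without KO1, KO4, KO5, KO6, WT1, WT2 or WT6. Per-array means over the 7 genes were 6.20 to 6.29 on the arrays labelled WT, against 6.07 to 6.30 on the arrays labelled KO. These means lay below the table's median of 6.42. Of the 7 genes, 3 lay above that median, among them H2al2a, at a mean of 6.75 labelled WT and 6.52 labelled KO.

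The arrays labelled WT varied more than those labelled KO, and the histone genes varied together. The SD was larger among the arrays labelled WT in 23 of 28 clustered genes and in all 8 variants, against 67.8% of all probe sets. Its median was 0.17 against 0.09 in the clustered genes. WT6 was the lowest array labelled WT in 19 of the 28 clustered genes (5405 of 21789 probe sets overall) and WT4 the highest in 15 (3465 overall). WT3 and WT4 were both above the other 4 arrays labelled WT in 16 of the 28 (1599 overall), among them 12 of the 14 genes that rose.

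**Figure D3:**
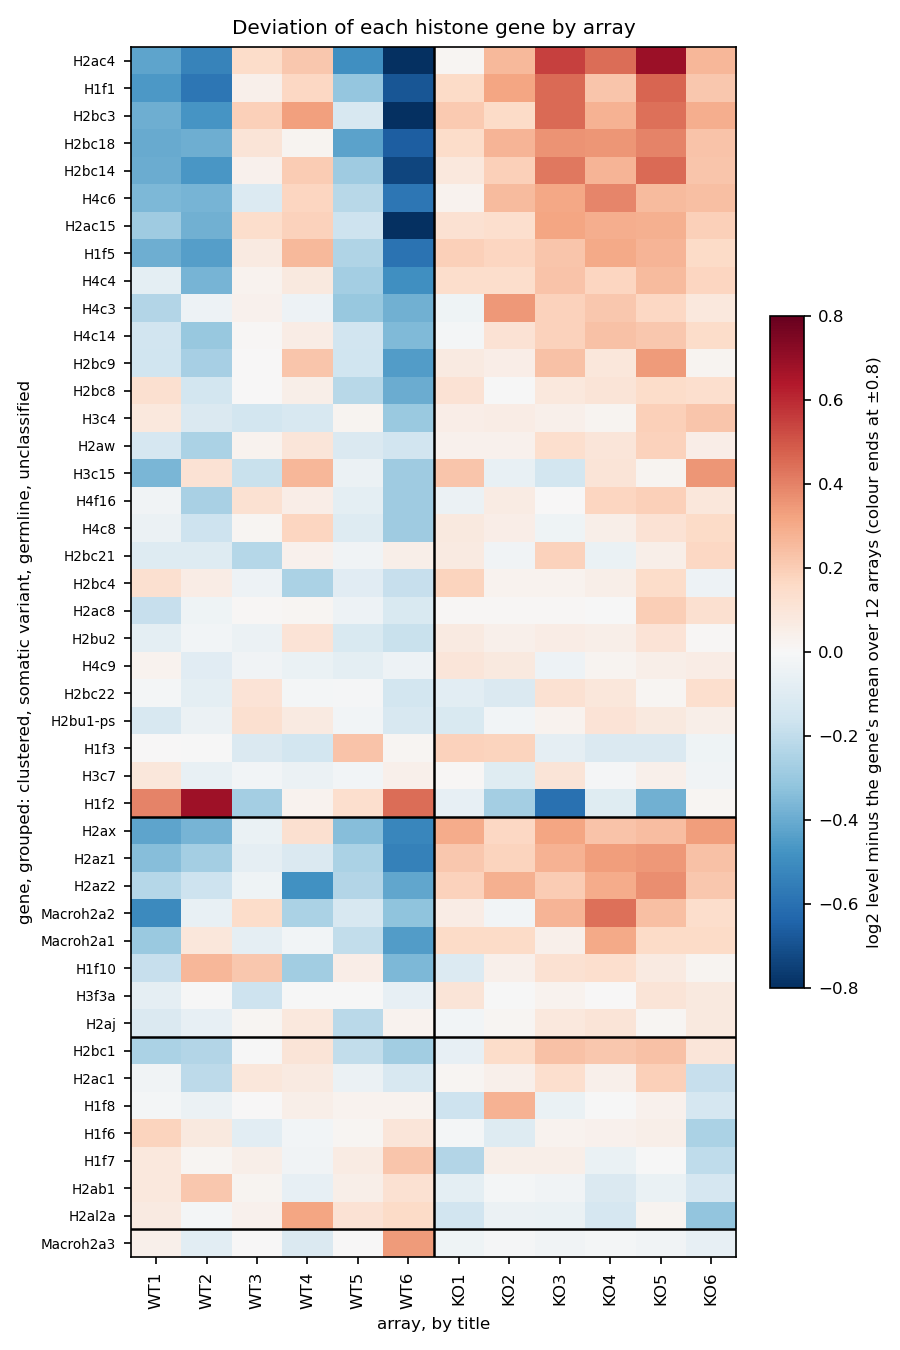
Log2 level of each histone gene on each array minus the mean of that gene over the 12 arrays, genes grouped as in the plot of differences and ordered by difference, with black lines between groups (red, above the mean; blue, below it). WT6 is the bluest column in the upper clustered rows, WT3 and WT4 lie between the other arrays labelled WT and those labelled KO, and the germline genes show no common pattern.

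Averaged over the 28 clustered genes, the arrays labelled WT lay at 8.0, 8.23 and 8.44 (lowest, median and highest) and those labelled KO at 8.43, 8.50 and 8.55. The ranges touched only through WT4 (8.44) and KO1 (8.43). Over the 8 variants the means were 8.26, 8.45 and 8.59 against 8.69, 8.75 and 8.82, and the ranges did not meet. WT4, highest in the clustered genes, was in the middle in the variants at 8.47.

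Genes of DNA replication were set beside the histones because S-phase histone messages are made while DNA is copied. Of 33 measured on a list of 34, 32 rose and none fell, with a median difference of 0.57. The 97.0% called higher stand beside 19.5% of all probe sets and 29.8% of those above the table's median. The list was chosen with earlier results of these data known. Their per-array mean was 7.37, 7.60 and 8.03 on the arrays labelled WT and 8.13, 8.28 and 8.34 on those labelled KO, without overlap. The 6 arrays labelled WT fell into the same order by the replication genes and by the clustered histones: WT6, WT2, WT1, WT5, WT3 and WT4 from low to high. The match rests in part on near ties. WT2 and WT1 were 7.57 and 7.58 by the replication genes, and WT1 and WT5 were 8.22 and 8.23 by the clustered histones. Over the 22 clustered genes above the table's median WT5 (9.08) lay below WT1 (9.1), so the orders differed. By the variants the order was WT6, WT1, WT5, WT4, WT2 and WT3. The arrays are shared by these means, and no test was made of the likeness.

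**Figure D4:**
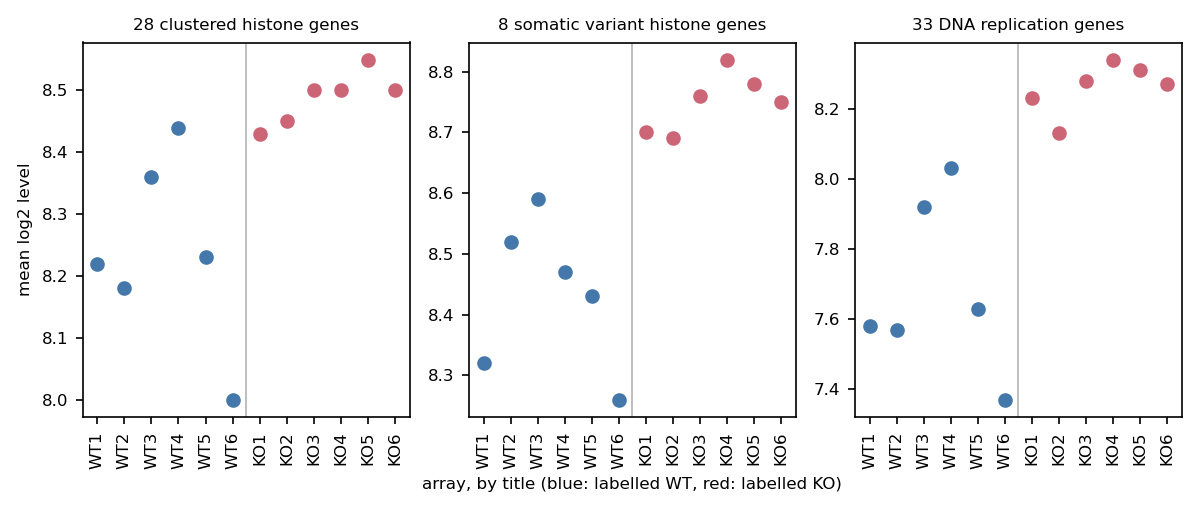
Mean log2 level per array over 28 clustered histone genes, 8 somatic variant histone genes and 33 DNA replication genes, each panel with a vertical scale of its own (blue, labelled WT; red, labelled KO). WT6 is lowest in all 3 panels, WT3 and WT4 come nearest to the arrays labelled KO in the clustered and replication genes, and the variants and replication genes show a gap between the groups.

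Histone supply genes, which switch on histone genes, finish their messages, and carry and deposit the proteins, were taken from a list of 47, of which 44 were measured. Of these 16 rose and 5 fell, with a median of 0.10. The 36.4% called higher compare with 19.5% of all probe sets and with 29.8% of those above the table's median, where 41 of the 44 lay, and 12.4% of all probe sets were called lower. The counts by role below are small and are to be read against the same shares. Among 5 genes for transcription, E2f1, the S-phase activator, rose by 0.43 ± 0.06 (limma adjusted p = 0.000228) and Cdk2, the kinase that activates Npat, by 0.37 ± 0.08 (adjusted p = 0.0026), both without overlap. Npat, the coactivator of histone clusters, read 7.86, 8.18 and 8.35 on the arrays labelled WT and 7.95, 8.14 and 8.28 on those labelled KO, with a difference of -0.03 (adjusted p = 0.813). Casp8ap2, the FLASH protein of the histone locus body, differed by 0.13 (adjusted p = 0.0784) and passed only when KO2 or WT2 was left out or with median centring, among the alternatives tried.

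Of 14 genes for processing and turnover of histone messages, 6 rose and 1 fell. Slbp, which binds the stem-loop, read 7.80, 8.14 and 8.61 on the arrays labelled WT and 8.42, 8.57 and 8.65 on those labelled KO. Its highest array labelled WT lay among those labelled KO, and it rose by 0.42 ± 0.10 (limma adjusted p = 0.00725). Eri1, the exonuclease that trims the stem-loop, rose by 0.44 ± 0.06 (adjusted p = 7.95e-05) without overlap. The cleavage factors Cstf2 and Cpsf3, the latter the nuclease itself, rose by 0.34 ± 0.05 and 0.26 ± 0.05 (adjusted p = 0.000252 and 0.00195). Sympk, the scaffold of the cleavage complex, fell by 0.23 (adjusted p = 0.00132), with all 6 arrays labelled KO below all labelled WT.

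Carriers of newly made H3 and H4 held the largest rises of the list, with 8 of 12 called higher and none lower. Asf1b, the H3-H4 chaperone of dividing cells, read 7.93, 8.41 and 9.02 on the arrays labelled WT and 9.25, 9.36 and 9.58 on those labelled KO. Chaf1b, a subunit of the assembly factor CAF-1 at the replication fork, read 6.81, 7.26 and 7.69 against 7.81, 8.14 and 8.30. Both separated the groups, with differences of 0.92 ± 0.15 (limma adjusted p = 0.00044) and 0.82 ± 0.14 (adjusted p = 0.000651). Nasp and Dnajc9, both histone chaperones, rose by 0.47 ± 0.08 and 0.45 ± 0.06 (adjusted p = 0.0005 and 6.79e-05), again without overlap.

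For the deposition of variant H3 no gene rose and 3 of 6 fell. Ubn2 fell by 0.40 (limma adjusted p = 0.00379) and Ubn1 by 0.26 (adjusted p = 0.00532), both subunits of the HIRA complex, and Atrx, which acts with Daxx, by 0.24 (adjusted p = 0.00853). All 3 overlapped between the groups. Among 7 genes for carrying H2A and H2B and for carrying or exchanging H2A.Z, 1 fell, Npm1 by 0.22 (adjusted p = 0.00535). The other 6 did not pass, among them Srcap (-0.06), Ep400 (-0.01) and Anp32e (-0.16). Roles were not compared by a test.

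Markers of other cells are given for the same arrays, beside the 19.5% of all probe sets and 29.8% of the brighter ones that were called higher. The mean of 8 fibroblast markers was 10.69 to 10.98 on the arrays labelled WT, against 11.07 to 11.27 on the arrays labelled KO (7 rose, 1 fell), and that of 9 endothelial markers 9.36 to 9.71 and 9.77 to 9.89 (6 rose, 0 fell). The 10 macrophage markers averaged 8.07 to 8.57 and 8.58 to 8.76 (7 rose, 0 fell), and 9 satellite cell and myoblast markers 8.43 to 8.56 and 8.60 to 8.70 (3 rose, 0 fell, 6 did not pass), a share of 33.3% called higher and so near that of the brighter probe sets. Of 8 adipocyte markers 5 rose and 0 fell, at 7.87 to 8.75 against 7.90 to 9.71. None of 9 neutrophil, 9 lymphocyte and 8 erythroid markers was called, and on the arrays labelled KO their means were 5.55 to 5.87, 5.51 to 5.62 and 6.01 to 6.42, at or below the table's median. Within the erythroid list Alas2 and Slc4a1 were brighter, at 9.37 and 7.89 on the arrays labelled KO, where the others lay at 6.09 or lower. WT4 was the highest array labelled WT in every erythroid marker and widened their spread, so a missing call says little for them. In whole muscle, more cells of a type and more RNA per cell cannot be told apart, and the part of these cells in the histone differences was not tested. Without WT4, the array with blood cell markers, 23 histone genes rose and 3 fell, none of the 23 calls was lost, and H2bc8, H2bu2 and H4c8 were gained. Without KO5, the array with low adipocyte markers, 16 rose and 1 fell.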

How the data were processed

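Quadriceps RNA of 12 mice was measured on 12 arrays, 6 labelled WT and 6 labelled KO. The authors extracted the images and made gene level values with Affymetrix software. How the probes were summarised, in which software version and on which build is not given in the sources used here. Values as deposited were read as log2 levels from their range, since the table names no scale, and no further normalization or filter was applied. Array medians were 6.35 to 6.46. No column lacked a sample. Precision is limited by the number of arrays. The methods speak of separate mice.

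Probe sets were named through the platform's annotation, with symbols updated by gene identifier from RefSeq on GRCm38.p6 (21698 of 21789 matched). Of 35556 rows, 21789 had 1 symbol and were tested, 1621 had several and 12146 are unnamed here. The probe set with the highest mean stood for a gene. Differences were fitted by limma (version 3.58.1, lmFit then eBayes, run in R 4.3.3), two-sided, without covariates, over all 12 arrays, at an adjusted p threshold of 0.05. The fit was tested on simulated data. Members and lists were chosen with earlier results of these data known. Named in the text are all somatic variants and, per clustered family, up to 4 called genes per direction with the largest difference and the largest without a call. A like rule per role served for the supply list. Members named for a lost or gained call, H2bc1, H2al2a, H2ab1, H1f6, H2ac1 and the named markers were chosen after their values were seen. Alternatives were quantile normalization, median centring, a filter on dim probe sets, all rows, a replicate block, a variance trend, array weights, the methods' t-test, every probe set of a gene, and each array left out.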

Additional observations from a re-analysis of the deposited data

Results flagged for a closer look

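Macroh2a3, annotated as a transcribed pseudogene and of no class here, read 6.75 on WT6 against 6.29 to 6.45 on the other arrays labelled WT. Its gap to the next array took up 0.652 of the range of the group, beyond what Dixon's test allows for 6 arrays. This was 1 of 88 groups of arrays examined, where chance alone flags about 1 in 20 groups.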

How the results depend on the processing

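No total of calls in both directions moved by over 1.5 times under the alternatives tried. Calls of lower level did: over all probe sets they went from 2702 to 1557 with median centring, and among the histone genes from 3 to 1 without KO5, WT1 or WT6. With 1 array left out, 5924 to 7155 probe sets were called (6952 with all arrays), and of the histone genes 17 to 26 of 44, of the clustered genes 10 to 18, of the variants 5 in each fit, and of the supply genes 20 to 24. Median centring called 29 histone genes higher and 2 lower, lost H2ab1, and moved the share of higher calls over all probe sets from 61.1% to 77.8%. Quantile normalization called 24 higher and 2 lower and lost H2bc3, H2bc9 and H2ab1. With all rows tested there were 21 calls, and H2bc3 and H2bc9 were lost. Array weights lost H3c4. The methods' t-test put 28 of the 44 under a p of 0.05, and 21 after Benjamini-Hochberg. H1f2, H2ac15, H2bc3 and H2bc9 were then lost. All 28 also passed the fold limits of those methods, with fold taken here from the log2 difference. The study prints far smaller changes for the genes compared above, so whether the 28 would pass on its own measure was not tested. Without dim probe sets 21 of 32 were called, and with every probe set of a gene 25 of 46. Directions were followed for the 45 histone and supply genes that the naming rule picked, not for the others. Of the 45, H1f3 and Npat turned direction, both without a call: H1f3 was -0.059 with array weights and -0.03 to 0.052 with 1 array left out, and Npat was 0.022 with median centring and -0.088 to 0.01 with 1 array left out. With the replicate block, 21 histone genes (19 higher, 2 lower) and 6074 probe sets were called, and H3c4 and H2ab1 were lost. Same-numbered arrays correlated at -0.223 to 0.168 and 1 of 6 arrays labelled WT correlated best with its own number, so the numbers were not taken as pairs. Probe sets near background had no detection call, which limits what the dim histone genes show. The causes of these shifts were not tested.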
